A study of Mus musculus with 18 samples.

Results

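Sprr1a and Ly6d were followed in every liver of a mouse study of the stress cytokine GDF15. They were chosen by name, with earlier results of these data known, and are 2 of the 16245 genes in the count table. Liver RNA was sequenced from 18 wild-type C57BL/6 mice (males of C57BL/6J background by the study's methods), with 6 mice in each of 3 groups. All mice were placed at 8 weeks of age on a NASH diet, which drives fatty liver with inflammation and scarring, were housed at about 29 °C and were kept singly. The vehicle group was given the buffer alone, and the GDF15 group received recombinant GDF15 under the skin once daily in the morning. The pair-fed group was offered the amount of food that GDF15-treated mice had eaten on the previous day. The labels list several doses of GDF15 without tying one to a mouse, and give no age at collection.

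Sprr1a encodes a small proline-rich protein that transglutaminases cross-link into the cornified envelope, the protein shell of squamous cells in skin and oesophagus. It is also known as a gene that is induced by injury in several other tissues, and its promoter is a classical target of the AP-1 transcription factors. Ly6d encodes a small protein of the Ly6 and uPAR domain family that is held on the cell surface by a lipid anchor. It is used as a marker of keratinocytes and of early B-lineage progenitors. Neither gene is a classical marker of hepatocytes, the main cell type of the liver.

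In GENCODE M21 (GRCm38, the assembly also called mm10, which is the build named in the submitters' processing notes), Sprr1a lies on the minus strand at chr3:92483952-92485895. It has 2 exons, a transcript of 806 bases and a coding sequence for 144 residues that lies wholly in exon 2. Ly6d lies on the minus strand at chr15:74762056-74763620, with 3 exons, a transcript of 744 bases and a coding sequence for 127 residues. Each gene has a single annotated transcript. No 31-base word of either transcript occurred in a transcript of another gene (0 of 759 words for Sprr1a and 0 of 714 for Ly6d), so no such word assigns a read to a near-identical copy of either gene.

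The promoter of Sprr1a is shown because it holds the AP-1 motif, and genes of the AP-1 family are described below. The 236 bases upstream of both the GENCODE and the RefSeq start (sequence from RefSeq, GRCm38.p6, chr3:92485896-92486131, minus strand, 5′ to 3′) are printed with matches to the AP-1 motif (TGACTCA or TGAGTCA, both strands) and to the TATA box (TATAAA, both strands) in capitals.

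Sprr1a promoter: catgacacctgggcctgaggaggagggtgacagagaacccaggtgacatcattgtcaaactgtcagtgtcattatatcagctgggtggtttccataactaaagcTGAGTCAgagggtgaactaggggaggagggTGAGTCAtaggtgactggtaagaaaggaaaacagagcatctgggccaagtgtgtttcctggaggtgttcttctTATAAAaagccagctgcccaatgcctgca

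The AP-1 motif occurred 2 times, beginning 146 and 116 bases before the RefSeq start, and the TATA box began 43 bases before it. The printed bases end at the GENCODE start, which lies upstream of the RefSeq start, so distances counted on the printed letters are shorter. Over the same window of 32851 RefSeq promoters, 4.28% held at least 1 AP-1 match and 0.152% held at least 2, while 11.9% held a TATA box. The core of the cyclic AMP element (TGACG), the nuclear receptor element (AGGTCA) and the ETS motif (GGAAG) had no match in this window on either strand. These are matches of letters, and binding of a factor was not measured. The promoter of Ly6d was not analysed here.

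Both genes were measured in all 18 livers. In the vehicle livers numbered 1 to 6, Sprr1a was at 369, 355, 102, 222, 182 and 230 normalized counts, which are counts divided by the size factor of the library. In the pair-fed livers 1 to 6 it was at 323, 522, 120, 84.1, 242 and 119. In the GDF15 livers 1 to 6 it was at 13.0, 7.23, 10.2, 2.57, 3.90 and 2.41. The GDF15 livers lay below every other liver, and the highest of them was 6.47-fold under the lowest pair-fed liver. These values rest on 2 to 15 counts per GDF15 library, and 3 of the 6 libraries were at or under 3 counts, the floor used here for detection. Summed over the group, 39 counts gave 0.322 CPM (exact Poisson 95% interval 0.229 to 0.440, counting error only).

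Ly6d was the more abundant of the pair. It was at 2757, 3184, 941, 1674, 1281 and 1636 normalized counts in the vehicle livers 1 to 6. In the pair-fed livers 1 to 6 it was at 2957, 3678, 1068, 448, 1446 and 859. In the GDF15 livers 1 to 6 it was at 187, 186, 151, 805, 92.2 and 41.0. All 6 GDF15 livers lay below all 6 vehicle livers, but GDF15 replicate 4 lay above the lowest pair-fed liver, so that 5 of the 6 lay below all pair-fed livers. That library stood apart from the other 5, which averaged 132 ± 63.6 normalized counts (SD, n = 5).

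**Figure D1:**
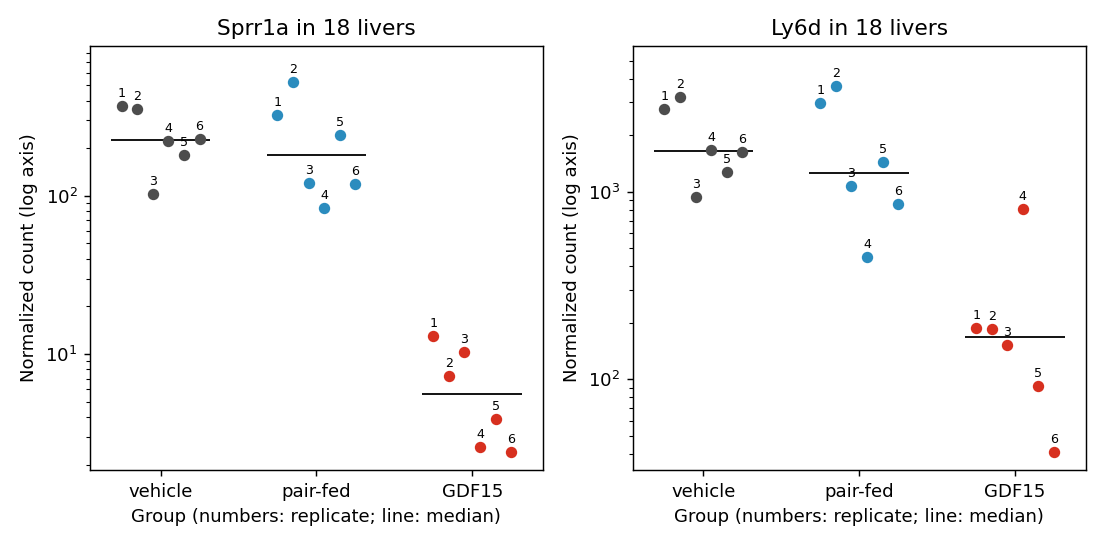
Normalized counts of Sprr1a and Ly6d on log axes in 18 livers, with 1 numbered point per liver and a line at the median of each group. Sprr1a separated the 6 GDF15 livers from the other 12, whereas Ly6d in GDF15 replicate 4, at 805, stood above the lowest pair-fed liver, at 448.

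The group means were 244 ± 103 for vehicle, 235 ± 167 for pair-fed and 6.56 ± 4.37 for GDF15 in Sprr1a (normalized counts, SD, n = 6). For Ly6d they were 1912 ± 872, 1743 ± 1282 and 244 ± 281. The log2 fold change of Sprr1a was −5.18 ± 0.52 (SE) against vehicle and −5.12 ± 0.52 against pair-fed, which are falls of 36.1-fold and 34.8-fold. Ly6d had log2 fold changes of −2.97 ± 0.62 and −2.84 ± 0.62, or 7.85-fold and 7.15-fold. Without GDF15 replicate 4 those of Ly6d were −3.86 and −3.72. Because both genes were chosen for this fall, these contrasts are given as a description with no test. Both comparisons use the same GDF15 livers. Among the 138 genes called lower in both comparisons with a mean of at least 50 normalized counts, Sprr1a had the largest fall against vehicle and Ly6d had the rank 12.

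To be called, a gene needed a DESeq2 adjusted p under 0.05 together with a log2 fold change beyond 1 in either direction. Under that rule 6.27% of the genes tested were called with GDF15 against vehicle, 5.37% as lower, and 3.37% against pair-fed, 2.75% as lower. Among genes with a mean of at least 50 normalized counts, 4.13% had all 6 GDF15 livers below the 12 others, as Sprr1a did and Ly6d did not. In bulk tissue, fewer cells that express a gene and less RNA per cell cannot be told apart.

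Pair-feeding, which asks whether matched food intake alone moves these genes, is not the contrast that chose them. It compares the 2 groups that the GDF15 livers were set against, so it is not independent of that choice. Sprr1a differed by −0.05 ± 0.47 on the log2 scale (SE) between pair-fed and vehicle livers (DESeq2 adjusted p = 0.998), with a 95% interval of −0.97 to 0.86. Ly6d differed by −0.13 ± 0.62 (DESeq2 adjusted p = 0.998), with an interval of −1.34 to 1.07. Neither gene differed beyond the spread between mice, and the intervals still hold changes of nearly 2-fold for Sprr1a and more for Ly6d. None of the 16242 genes tested was called in this comparison (0%). In the order of levels, vehicle and pair-fed livers were neighbours that did not differ beyond their spread, and GDF15 livers were lowest.

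Within the vehicle and pair-fed groups, both genes varied widely from mouse to mouse. The highest liver exceeded the lowest by 3.61-fold for Sprr1a and 3.38-fold for Ly6d in the vehicle group, and by 6.20-fold and 8.21-fold in the pair-fed group. The same livers were high or low for both genes. Replicates 1 and 2 were the highest in each group, replicate 3 was the lowest vehicle liver and replicate 4 the lowest pair-fed liver.

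Pearson's r between the log2 values of the pair was 0.97 in the vehicle group (Spearman's rho 0.89, n = 6) and 0.97 in the pair-fed group (rho 1.0, n = 6). Over deviations from the group means of those 12 livers, r was 0.96 and rho 0.98. Without the 2 livers farthest from the median of Sprr1a it was 0.95 (n = 10). Among 10882 genes with a mean of at least 50 normalized counts, Ly6d was the gene most highly correlated with Sprr1a, and Sprr1a stood at place 5 for Ly6d. The deviations share library and depth. Against the log2 library total, r was −0.34 for Sprr1a and −0.45 for Ly6d, and against the share of counts taken by Alb, the albumin gene, it was −0.76 and −0.85 (n = 12 livers). With the share of Alb regressed out, r between the pair was 0.93.

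Per kilobase of transcript, Ly6d exceeded Sprr1a by 8.54 ± 1.03 times in the vehicle group and 7.87 ± 1.65 times in the pair-fed group (SD, n = 6). In the GDF15 livers other than replicate 4, the ratio was 20.7 ± 5.67 (SD, n = 5), and the lowest of them, from 216 counts of Ly6d and 15 of Sprr1a, had an exact 95% interval of 9.25 to 28.4. That lowest ratio lay above the highest of the 12 vehicle and pair-fed livers, at 9.96, although the interval of each GDF15 ratio is wide because Sprr1a has few counts there. In GDF15 replicate 4 the ratio was 340, from 627 counts of Ly6d and 2 of Sprr1a (exact 95% interval 93.6 to 2811). Over all 6 GDF15 livers r between the log2 values of the pair was 0.06 and rho 0.37. Neither is read further, because Sprr1a has few counts there and replicate 4 stands apart. With replicate 4 set aside after its value was seen, both genes were highest in replicate 1 and lowest in replicate 6. Replicate 5 was next to lowest for both. Whether the pair stays coupled with GDF15 cannot be read from so few livers and 2 to 15 counts of Sprr1a.

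**Figure D2:**
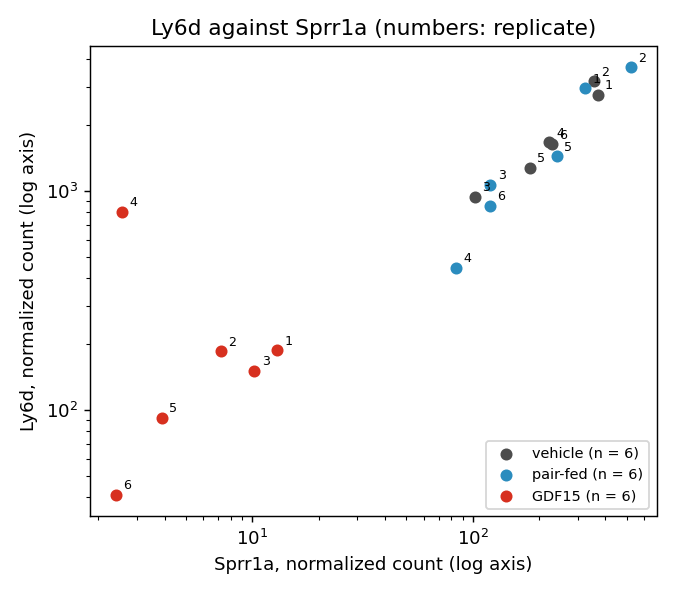
Normalized counts of Ly6d against Sprr1a on log axes, with 1 point per liver numbered by replicate. The 12 vehicle and pair-fed livers lie along 1 line. At its lower left lie 5 GDF15 livers, each with a higher ratio of Ly6d to Sprr1a than any of the 12. GDF15 replicate 4 stands well above the line and has the highest ratio.

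Which other genes move with the pair from liver to liver was read from the 12 vehicle and pair-fed livers. Likeness was the mean of 2 Pearson r, with Sprr1a and with Ly6d, over deviations from group means of log2(normalized count + 1). Over the 10881 other genes with a mean of at least 50 the median likeness was −0.04. For 30 genes both r exceeded 0.9, and for 40 genes both lay below −0.9. These correlations describe 12 livers and carry no p.

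The gene most alike was Tnfrsf12a, which encodes Fn14, the receptor of the cytokine TWEAK (r of 0.96 with Sprr1a and 0.99 with Ly6d). Next came Clip2, which encodes a linker of microtubules (0.95 and 0.97), and Gstm3, a glutathione transferase of the mu class (0.94 and 0.96). Gstm3 has close relatives between which Salmon may split reads, so its own level is less certain. Anxa2 and Anxa5, whose products are annexins that bind membranes in the presence of calcium, also stood in the first 10 (0.93 and 0.97 for Anxa2, 0.94 and 0.94 for Anxa5). Lmna, which encodes the nuclear lamins A and C, was alike at 0.95 and 0.94. The others of the first 10 were Lrrc14b, Sgsm2, the phosphatase gene Dusp3 and Kmt5a, which encodes the enzyme that adds a single methyl group to lysine 20 of histone H4, with r of 0.92 to 0.96.

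Among the genes most opposite were Acy1, Tpcn1, Atad3a and Prodh. Acy1 encodes aminoacylase 1 (r of −0.98 with Sprr1a and −0.97 with Ly6d). Tpcn1 encodes a two-pore channel of endosomes and lysosomes, and had r of −0.96 and −0.97. Prodh encodes proline dehydrogenase, the first enzyme of proline breakdown, and had −0.95 with both. Atad3a, which encodes a mitochondrial membrane ATPase, had r of −0.93 and −0.97. Livers with much Sprr1a and Ly6d were thus the livers with less of these transcripts, within both groups.

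**Figure D3:**
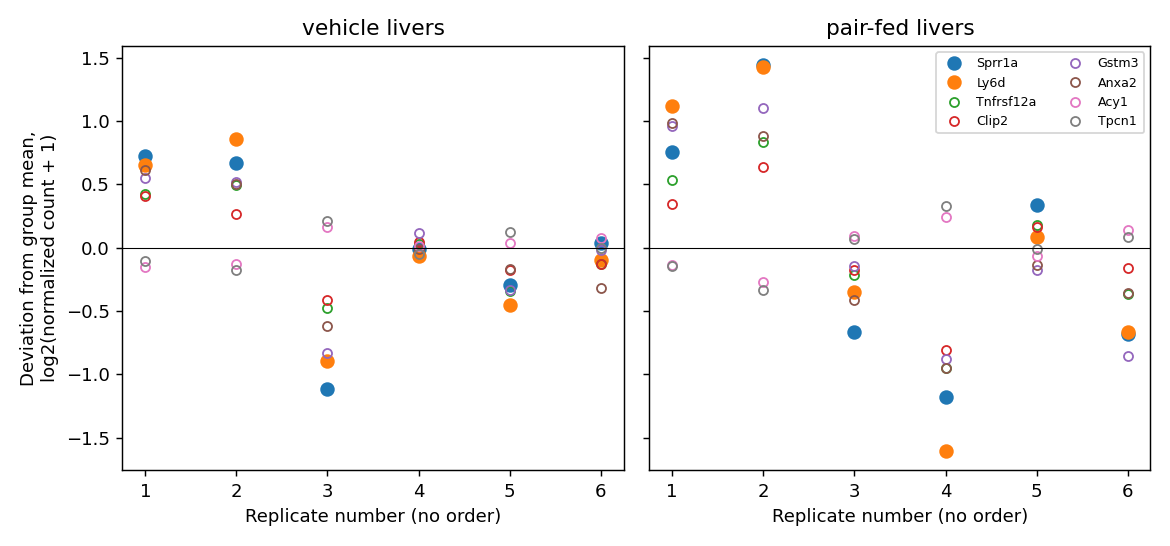
Deviation from the group mean of log2(normalized count + 1) in the vehicle (left) and pair-fed (right) livers for Sprr1a and Ly6d (filled), the 4 genes most alike and the 2 most opposite (open). Replicates 1 and 2 are high and vehicle replicate 3 and pair-fed replicate 4 low for the pair and the genes most alike, and Acy1 and Tpcn1 go the other way with smaller deviations.

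The likeness was partly shared between the groups. The 30 genes most alike in the vehicle livers alone had a median likeness of 0.55 in the pair-fed livers, where 25 of 30 were positive and 49.1% of all 10881 genes were. The 30 most alike in the pair-fed livers had a median of 0.63 in the vehicle livers, where 26 of 30 were positive against 45.2% of all genes. A fit across all genes with the deviation of a member as covariate called 1572 genes for Sprr1a and 2114 for Ly6d at a DESeq2 adjusted p under 0.05. For Sprr1a 749 moved with it (5.59% of those tested) and 823 against it (6.14%), and for Ly6d 984 moved with it (7.17%) and 1130 against it (8.24%). Of these, 1480 were called for both, which is 94.1% of the genes for Sprr1a and 70.0% for Ly6d. All 1480 went the same way with both. The 2 covariates had r of 0.96 over the same 12 livers, so this overlap and shared direction were largely given in advance. The counts rest on few livers. Without vehicle replicate 1, pair-fed replicate 1 or pair-fed replicate 4 the count for Sprr1a was 958, 924 and 917, and without either of the last 2 the count for Ly6d was 1269 and 1400. With the replicate number as a block, which the labels do not make a pairing, the counts were 21 and 37.

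Whether the genes alike within groups also differed with GDF15 was read next. The correlations used no GDF15 liver, but the 2 measures are not fully separate. The filter on the mean count used all 18 libraries, and the pair itself was chosen for its fall with GDF15. Of the 30 most alike, 13 fell with GDF15 against vehicle and none rose, where 2.32% of all genes with a mean of at least 50 fell. Against pair-fed livers 11 fell and none rose, where 1.34% of such genes fell. At an adjusted p under 0.05 with no fold threshold, 26 of 30 were lower against vehicle, where 16.2% of such genes were. The median log2 fold change of the 30 was −0.92 against vehicle and −0.75 against pair-fed, beside 0.04 and 0.03 over all such genes.

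Anxa2 had the largest fall of the 30. It ranged from 1554 to 3659 normalized counts in the vehicle livers (median 2248), from 815 to 3125 in the pair-fed livers (median 1328) and from 283 to 470 in the GDF15 livers (median 353). The GDF15 livers did not overlap the others, and the log2 fold change was −2.79 ± 0.32 (SE, DESeq2 adjusted p = 2.16e-15) against vehicle and −2.30 ± 0.32 (1.75e-10) against pair-fed. Tnfrsf12a ranged from 246 to 482 in vehicle livers, from 158 to 547 in pair-fed livers and from 116 to 183 in GDF15 livers. Its lowest pair-fed liver lay within the GDF15 range, and its log2 fold change was −1.21 ± 0.24 (DESeq2 adjusted p = 1.13e-05) against vehicle and −1.13 ± 0.24 (7.03e-05) against pair-fed. Clip2, Gstm3 and Anxa5 fell in both comparisons, by 1.46, 1.83 and 1.71 on the log2 scale against vehicle.

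Other genes alike within groups moved little with GDF15. Sgsm2 was at 250 ± 28.2 normalized counts with vehicle and 241 ± 20.0 with GDF15 (SD, n = 6, DESeq2 adjusted p = 0.705). Kmt5a, Lmna and Dusp3 passed the adjusted p in both comparisons with log2 fold changes of −0.32, −0.46 and −0.51 against vehicle, short of the fold threshold. Of the 30 genes most opposite, 1 rose and none fell against vehicle, where 0.809% of such genes rose. It was the carboxylesterase gene Ces2a (log2 fold change 1.05), named because of its values. By adjusted p, 21 of the 30 were higher at a value under 0.05 with no fold threshold, where 20.5% of all such genes were. Prodh went from 3557 ± 473 with vehicle to 6142 ± 758 with GDF15, a log2 fold change of 0.79 ± 0.14 (DESeq2 adjusted p = 2.99e-07), also short of the fold threshold. In pair-fed against vehicle livers none of the 30 most alike was called by DESeq2 or had an unadjusted p under 0.05 (0 of 30). DESeq2 gave an unadjusted p under 0.05 for 4.42% of all genes.

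**Figure D4:**
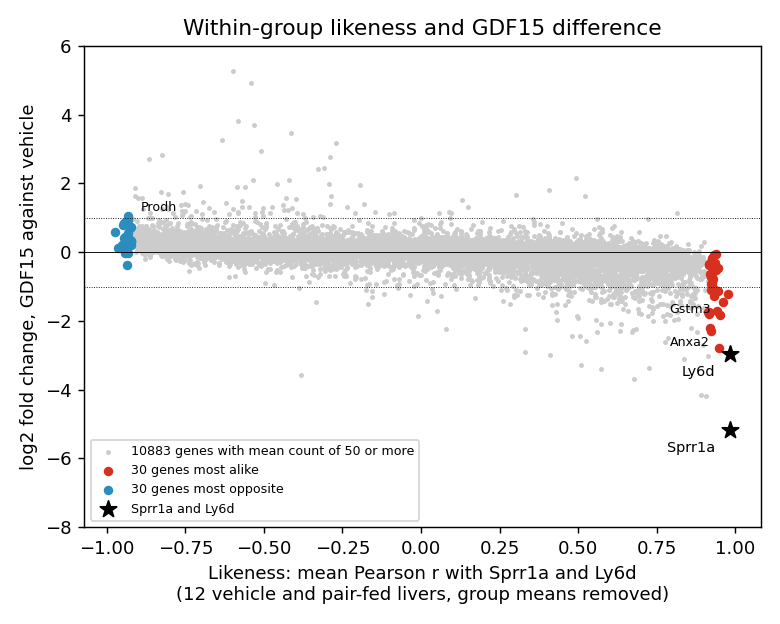
Log2 fold change with GDF15 against vehicle plotted against likeness to Sprr1a and Ly6d over 12 vehicle and pair-fed livers, for genes with a mean of at least 50 normalized counts, with dotted lines at the fold threshold. The 30 genes most alike (right) lie below 0 with a median of −0.92, and the 30 most opposite (left) mostly above it with a median of 0.33.

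Close relatives of Sprr1a hardly appeared in these livers. Of 16 listed Sprr genes, 3 besides Sprr1a had a row, and Sprr1b, Sprr2a1 and Sprr2b averaged 0.719, 2.13 and 0.745 normalized counts over the 18 livers. None was called. Within 500 kb on either side of Sprr1a, a part of the epidermal differentiation complex, 7 other genes had a row and 1 of them, Lor, which encodes loricrin of the cornified envelope, averaged at least 10 (20.3 normalized counts, log2 fold change 0.52, DESeq2 adjusted p = 0.175). The 2 of the 7 with an adjusted p, Lor and Sprr2a1, were not called, and the other 5 had no adjusted p.

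Of the Ly6 and uPAR domain family, 26 genes besides Ly6d had a row and 10 averaged at least 10 normalized counts. Plaur, which encodes the urokinase receptor, was the 1 of 19 tested that fell against vehicle (from 24.98 ± 9.14 to 9.18 ± 3.82 normalized counts, log2 fold change −1.45 ± 0.35, DESeq2 adjusted p = 0.000314). Lynx1, a modulator of nicotinic receptors and a neighbour of Ly6d, had a log2 fold change of −0.99 (DESeq2 adjusted p = 0.000808), just short of the fold threshold. Ly6e, the most abundant relative, was at 7632 ± 1092 with vehicle and 6862 ± 2081 with GDF15 (DESeq2 adjusted p = 0.495), although within groups it moved with the pair (r of 0.80 with Sprr1a and 0.88 with Ly6d). Ly6g2 went against them (−0.88 and −0.82) and was higher with GDF15 by 0.46 on the log2 scale (DESeq2 adjusted p = 2.50e-06), short of the fold threshold. The others of that family with at least 10, Ly6a, Ly6c2, Ly6m, Gpihbp1, Cd59a and Cd59b, had log2 fold changes of −0.18 to 0.28 and did not pass. Within 500 kb of Ly6d 14 genes had a row, and none of the 10 with an adjusted p was called.

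The remaining lists were written with earlier results of these data known, and their counts are descriptions. Over all 17 lists, which hold 261 genes besides the pair, 55 fell and 3 rose against vehicle, or 23.8% lower of the 231 tested beside 5.37% of all genes. Against pair-fed livers 41 fell and 1 rose, or 18.1% lower of the 226 tested beside 2.75% of all genes. The shares of 5.37% and 2.75% stand beside each count of falls in the lists below. In pair-fed against vehicle livers DESeq2 and edgeR called none, and 20 of the 261 had an unadjusted p under 0.05 (7.66%, beside 4.42% of all genes).

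Of the genes of the cornified envelope other than Sprr genes, 1 of 15 tested fell against vehicle and none rose, with a median log2 fold change of −0.31. The gene that fell was Pkp1, which encodes a plakophilin of desmosomes (from 30.5 ± 7.67 to 6.40 ± 3.67 normalized counts, log2 fold change −2.23 ± 0.38, DESeq2 adjusted p = 1.58e-07), and it followed the pair within groups at 0.87 with both. Against pair-fed livers 2 of 15 fell and none rose, Pkp1 and Tchh, the latter named because of its values (log2 fold change −1.17). By adjusted p with no fold threshold, 6 of 15 were lower and 1 higher against vehicle, and 4 and 0 against pair-fed livers. Ivl, which encodes involucrin of the cornified envelope, averaged 0.970. Of 17 listed markers of squamous epithelium, 6 had a row. Krt5, the keratin of basal cells, averaged 0.491 normalized counts. Krt10, a keratin of cornifying cells, averaged 41.7 and was not called, and the other 4 averaged 0.863 to 2.48. The summed level of this list was 1.41 to 3.21 CPM over all 18 livers. The part of such cells in the levels of the pair was not tested.

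The list of keratins and genes of injured epithelium held the most calls. Of 40 tested, 23 fell and 1, the fatty acid-binding protein gene Fabp5, rose against vehicle, and 13 fell against pair-fed livers, with a median log2 fold change of −1.06 and −0.76. By size of fall, Anxa2, the foam-cell and macrophage gene Gpnmb, the S100 family gene S100a11 and the tight-junction gene Cldn4 led. Gpnmb went from 259 ± 80.3 to 42.3 ± 29.0, S100a11 from 771 ± 244 to 157 ± 32.6 and Cldn4 from 21.1 ± 14.6 to 4.81 ± 2.82 normalized counts. S100a11 followed the pair within groups (0.92 with both) and Cldn4 less so (0.38 and 0.49). Krt8 and Krt18, the keratins of hepatocytes, followed at 0.91 and 0.94 and at 0.87 and 0.87, and were lower with GDF15 by 0.90 and 0.65 on the log2 scale, short of the fold threshold.

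In a list of AP-1, ATF and other early-response factors, which also holds Egr1, Klf4, Klf6 and Myc, 4 of 20 fell against vehicle and none rose. Of those with at least 10 normalized counts, Fosb went from 18.7 ± 8.16 to 6.93 ± 4.33, Atf3 from 147 ± 38.9 to 57.0 ± 15.65 and Klf6 from 726 ± 169 to 358 ± 74.6 (log2 fold changes −1.44, −1.37 and −1.02, DESeq2 adjusted p of 0.00179, 5.62e-08 and 0.000432). Klf6 followed the pair within groups most closely of the 3 (0.81 and 0.92), and Fosb did so at 0.42 and 0.44. The fourth, Fosl1, averaged 3.23 normalized counts and is named because of its values. With no fold threshold, 7 of the 20 passed the adjusted p as lower and 2 as higher against vehicle. Against pair-fed livers 4 were lower and 3 higher. These shares over all genes with a mean of at least 50 were 16.2% and 20.5%, and 14.1% and 17%. Junb, also named because of its values, was higher in both (log2 fold changes 0.54 and 0.80, DESeq2 adjusted p of 0.0371 and 0.0017). Its r within groups was −0.01 with Sprr1a and 0.17 with Ly6d. Of the 30 genes most alike, 24 had a RefSeq promoter, and 2 of these held an AP-1 match, beside 4.35% of the genes in the table with a promoter.

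Of 17 genes of gp130 cytokine signalling tested, 2 fell and none rose, with a median log2 fold change of 0.14. By adjusted p with no fold threshold, 7 were higher and 3 lower against vehicle, and 5 and 2 against pair-fed livers. Of all genes with a mean of at least 50 normalized counts, 20.5% were higher and 16.2% lower against vehicle. Against pair-fed livers these shares were 17% and 14.1%. Clcf1, a cytokine of this family, fell from 168 ± 61.3 to 49.5 ± 9.45 normalized counts (log2 fold change −1.76, DESeq2 adjusted p = 5.69e-13). The other, Lif, averaged 9.69 normalized counts and is named because of its values. Genes of PPARG and fat storage fell in 11 of 23 against vehicle and in 8 of 23 against pair-fed livers. The largest falls were in Cfd, which encodes adipsin, in the lipid droplet genes Cidec and Cidea and in the glycerol channel gene Aqp7, at −3.58, −3.40, −3.28 and −2.51 on the log2 scale. Within groups, however, Cfd ran against the pair (r of −0.39 and −0.38), and Cidec, Cidea and Aqp7 followed it at 0.48 to 0.62. Other members of the list that fell against vehicle, Fabp4, Pdk4 and Scd2, named because of their values, followed the pair at 0.77 to 0.88.

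**Figure D5:**
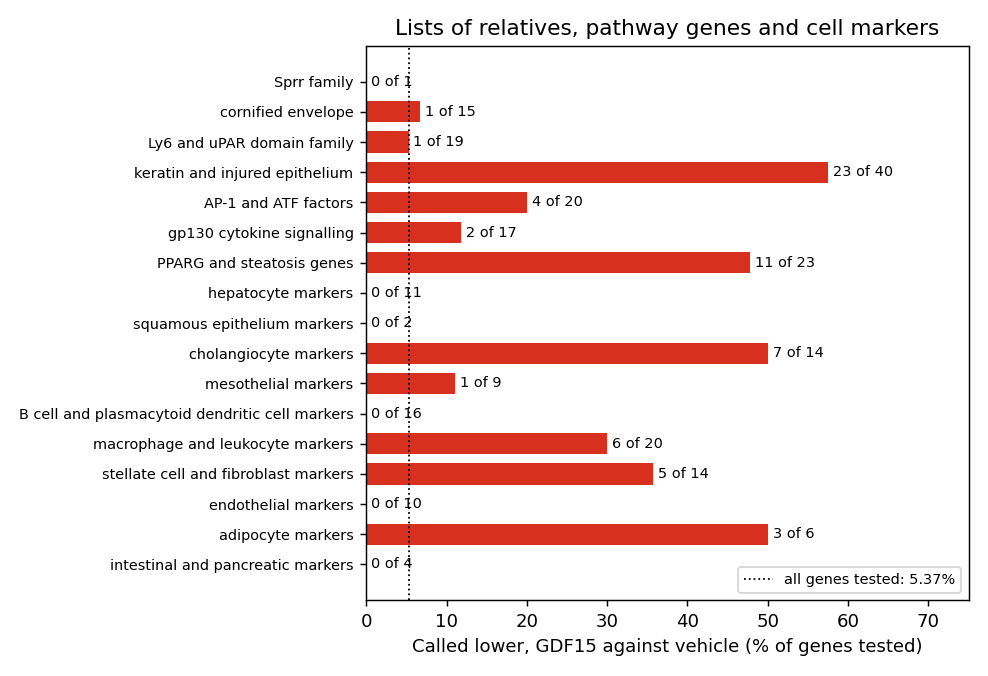
Share of the tested genes of each of 17 lists that were called lower with GDF15 against vehicle, with the counts written at the bars and a dotted line at the share of all genes tested, 5.37%. Keratin and injured epithelium genes (23 of 40) and several marker lists lie above the line. Cornified envelope (1 of 15) and Ly6 genes (1 of 19) lie near or below it, as do Sprr genes, of which 1 alone was tested.

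Markers of other liver cell types moved with GDF15 as well, and their part in the levels of the pair was not tested. Hepatocyte markers were higher against vehicle in 8 of 11 at an adjusted p under 0.05, beside 20.5% of all genes with a mean of at least 50. Cps1 passed both thresholds (log2 fold change 1.06). The summed level of these markers was 85802 to 119649 CPM in pair-fed, 95193 to 107389 in vehicle and 117292 to 124341 in GDF15 livers. The median r of these markers with the pair was −0.63 and −0.72. Of the 14 cholangiocyte markers, 7 fell, led by Tspan8, Spp1, Muc1 and Cftr (summed level 221 to 613 CPM with vehicle, 220 to 468 with pair-feeding, 155 to 241 with GDF15), and the median r with the pair was 0.51 and 0.58. Against pair-fed livers 3 of these 14 fell, and the median log2 fold change was −0.44, beside −1.12 against vehicle and −0.62 for pair-fed against vehicle. Of 14 stellate cell and fibroblast markers, 5 fell, led by Timp1, Col1a1, Col3a1 and Col1a2 (458 to 913, 418 to 750 and 207 to 332 CPM in the same order), with a median r of 0.59 and 0.62. Of 20 macrophage and leukocyte markers, 6 fell, led by Gpnmb, Ccr2, Cd14 and Itgax (222 to 497, 232 to 404 and 131 to 259 CPM), with a median r of 0.53 and 0.58. Against pair-fed livers 4 and 5 of these fell.

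Markers of B cells and plasmacytoid dendritic cells, blood cells in which Ly6d is known, did not follow the pair. None of 16 tested was called against vehicle, and 3 were lower against pair-fed livers (among them Cd79a and Pax5, named because of their values). The summed level of this list was 157 to 210 CPM with vehicle and 140 to 178 with GDF15. Its median r was −0.09 with Sprr1a and −0.05 with Ly6d. Of 9 mesothelial markers, Wt1 alone fell against vehicle, and none was called against pair-fed livers. The list had a median r of −0.21 and −0.32 and a summed level of 8.31 to 23.8 CPM with vehicle and 5.45 to 17.97 with GDF15. None of 10 endothelial markers was called, and their median r was 0.40 and 0.43. The 3 adipocyte markers that fell of 6 tested, Cfd, Cidec and Fabp4, are also in the fat storage list. Of 4 intestinal and pancreatic markers tested, 1 rose, the elastase gene Cela2a at 4.93 normalized counts on average, and none fell.

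GDF15 replicate 4, in which Ly6d but not Sprr1a was high, also had the highest levels of acute-phase genes in its group, which were examined after its value was seen. Saa1, which encodes serum amyloid A, was at 68458 normalized counts in that liver and at 407 to 11370 in the other 5. Lcn2, which encodes lipocalin 2, was at 7558 and at 60.3 to 1120, and Hp, the haptoglobin gene, at 172077 and at 46337 to 82530. Ly6e was at 10869 and at 5318 to 7284. By contrast Anxa2, at 354, Tnfrsf12a, at 155, and S100a11, at 180, lay within the range of the other GDF15 livers, as did Sprr1a. Of the acute-phase genes examined, Hp had the order nearest to that of Ly6d in the 6 GDF15 livers, with places 2 and 3 alone exchanged. Spearman's rho with Ly6d over these 6 livers was 0.94 for Hp, 0.71 for Saa1 and Lcn2 and 0.49 for the fibrinogen gene Fgb. Replicate 4 stood far above its group for 203 of 10883 genes, and the other GDF15 libraries did so for 24 to 124. In the 12 vehicle and pair-fed livers r with Ly6d was 0.81 for Lcn2, 0.46 for Saa1, 0.45 for Hp and −0.68 for Fgb, which was also highest in GDF15 replicate 4. Their part in the level of Ly6d was not tested.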

How the data were processed

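Total liver RNA from 18 mice was sequenced with a strand-specific kit, and the authors deposited estimated counts per gene, made with Trim Galore and Salmon on mm10 per the labels (versions not given in the sources used here). No column was left out (0 unused). Estimated counts were rounded to whole numbers. Library totals ran from 16508864 to 35301853. A model with group as the only term was fitted to all 18 libraries and 16245 genes in DESeq2 1.42.0 (R 4.3.3, Wald test, Benjamini-Hochberg adjustment), and edgeR 4.0.16 was the alternative. The group fit and the within-group covariate fit were tested on simulated data. Other steps used Python 3.11.15 with scipy 1.17.1. A count of 3 per library, or 0.0850 to 0.182 CPM, was the floor for detection, and intervals and floors cover counting error only. Replicates were separate mice, and p-values measure the spread between them.

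Sprr1a, Ly6d and the 17 gene lists were chosen with earlier results of these data known. Besides the pair and the measured members of the Sprr and Ly6 lists, genes were named by rule. From each other list these were at most 4 called against vehicle with a mean of at least 10 normalized counts, by size of change, and from the likeness the 10 most alike and 5 most opposite genes. Any other gene is named because of its values, and some genes that the rule or a count would name are not reported here. Alternatives changed the normalization, filter, tool, fold threshold, replicate block and libraries, and the measure of likeness.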

Additional observations from a re-analysis of the deposited data

Results flagged for a closer look

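Of 54 groups of 6 livers examined for a sample far from the others, 2 held one, where chance gives about 1 in 20 groups (2.7 expected). Both concern GDF15 replicate 4. Its Ly6d, at 805 normalized counts, stood apart from the other 5 GDF15 livers, at 41.0 to 187. Its ratio of Ly6d to Sprr1a per kilobase, at 340, stood apart from the others, the highest of which was at 27.9, and rests on 2 counts of Sprr1a.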

How the results depend on the processing

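Of 317 alternative values, 290 kept their direction and their side of the threshold or moved within the spread. Leaving out 1 library at a time, the log2 fold change against vehicle ranged from −5.50 to −5.01 for Sprr1a and from −3.86 to −2.75 for Ly6d, and against pair-fed from −5.45 to −4.71 and from −3.72 to −2.47. For pair-fed against vehicle it ranged from −0.46 to 0.12 for Sprr1a and from −0.50 to 0.07 for Ly6d. Its sign turned without vehicle replicates 1 (0.10) or 2 (0.08), or pair-fed replicates 3 (0.08), 4 (0.12) or 6 (0.08), for Sprr1a, and without vehicle replicate 2 (0.071) or pair-fed replicates 4 (0.066) or 6 (0.0057) for Ly6d, never past the threshold. Calls among list genes ranged from 47 to 64 against vehicle, from 33 to 46 against pair-fed and from 0 to 0 between those controls, and those among the 30 most alike from 12 to 15. The correlation of the pair ranged from 0.95 to 0.97, and the genes called as moving with or against Sprr1a and Ly6d from 917 to 1806 and from 1269 to 2187. Chosen after seeing the data were the sets of replicates, the Alb share and the block on the correlation. With replicates 4 to 6 only, Sprr1a differed by −6.17 against vehicle and Ly6d by −1.55 against pair-fed, and with replicates 1 to 3 only pair-fed against vehicle gave 0.23 and 0.17. With the Alb share regressed out the correlation was 0.93. With no fold threshold, more genes pass by construction: 125 and 95 list genes and 26 of the 30. Over all 18 libraries the correlation was 0.56, and 672 and 646 genes moved with or against Sprr1a and Ly6d; the cause was not tested. Of the 30 most alike, 12 to 30 were shared with other measures. Same-numbered vehicle and pair-fed livers correlated over 0.1 in 3 of 6 pairs (mean 0.16) and 2 of 6 livers correlated best with their own number, so the numbers were not taken as pairing. Over these pairs the deviations of Sprr1a and Ly6d had r of 0.63 and 0.64, with the same sign in 4 and 5 of 6. With a replicate block, the correlation was 0.95, 21 and 37 genes moved with or against Sprr1a and Ly6d in place of 1572 and 2114, and the log2 fold changes against vehicle were −5.24 and −3.29. Depth limits Sprr1a in GDF15 livers, with 2 to 15 counts.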
